A study of Homo sapiens with 6 samples.

Results

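The genes described here are the expressed long intergenic noncoding RNA genes of a breast cancer cell line, taken as the genes whose name is LINC followed by a number. Of the 33451 genes in the deposited table of counts, 448 carried such a name, and the 105 with a mean of at least 20 counts over all 6 libraries are described. They were chosen by their mean count over both groups, not by the difference between the groups. Just inside the limit were LINC00987 with a mean of 20.3 counts and LINC01619 with 20.7, and just outside were LINC01572 with 19.0 and LINC01481 with 18.0. All 105 members passed the low-count filter of edgeR. For 8 of them the mean was under 20 counts in one group: LINC01484 and LINC01151 in control, and LINC00987, LINC01137, LINC00910, LINC01623, LINC01269 and LINC01619 in 25(OH)D.

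The cells were MDA-MB-453, an established human line from a breast carcinoma, so both groups are one line in culture. The 25(OH)D group had 100 nM 25-hydroxyvitamin D (25(OH)D), the vitamin D form that circulates in blood, in its medium for 5 days, and the control group had the solvent, 0.1% alcohol, for the same time. Polyadenylated RNA was sequenced from 3 libraries in each group. The study's methods describe the replicates as biological, and the labels do not say whether the 3 libraries came from separate cultures, so the p-values below measure the spread between these libraries.

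Long intergenic noncoding RNAs are transcribed by RNA polymerase II from loci between protein-coding genes, and most are capped, spliced and polyadenylated like mRNAs. They are known for low abundance and for restriction to particular tissues, many are degraded in the nucleus by the RNA exosome, and some act on genes beside them while others act on chromatin or bind proteins. The LINC names are given by position to genes with no known product, and a few such transcripts were later found to encode small proteins. In cells with CYP27B1, 25(OH)D is converted to the hormone that binds the vitamin D receptor, which sits on DNA together with RXR at pairs of hexamers.

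The libraries held between 33268860 and 40928176 counts. By these raw totals, 3 counts were worth between 0.0733 and 0.0902 CPM (counts brought to one library size). Of the counts, 7.85% to 7.99% in control and 8.89% to 9.24% in 25(OH)D were on mitochondrial genes, and their part in the calls of single members was not tested. The luminal markers FOXA1, ERBB2, KRT8, KRT18, KRT19, XBP1, EPCAM and GATA3 were present, with FOXA1 between 19.1 and 30.7 RPKM (reads per kilobase of exon and per unit of library size) and KRT8 between 242 and 266. ESR1 and PGR stayed at or below 0.0134 RPKM. Of the 10 markers of blood, stroma, endothelium and basal epithelium, COL1A1 had 3.19 to 3.99 RPKM and the others were at or below 0.294.

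The members had few reads. Their mean counts ran from 20.3 to 5367 with a median of 80.3, against a median of 376.5 for all genes tested. Per length, the median of their mean levels was 0.675 RPKM, with a lowest value of 0.0477 for LINC01588, and 43 of the 105 reached 1 RPKM. They lay on 23 chromosomes and had a median of 4 exon blocks and 3295 exon bases, and 14 had a single exon. In RefSeq 94 of the 105 are annotated as long noncoding RNA, 10 as protein-coding and 1 as a transcribed pseudogene. In GENCODE 29, 63 were lincRNA, 14 were processed transcripts and 7 were antisense, so the LINC name does not always mark a gene that stands alone. Exon bases were shared with another gene of the table in 43 members, 16 of them on the same strand and 32 on the opposite strand. The libraries were made with a stranded kit, but the strand setting of the counting is not given in the sources used here, so reads from genes that overlap on opposite strands cannot be told apart.

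With the quasi-likelihood test of edgeR and Benjamini-Hochberg adjusted p-values over 18183 genes, at a threshold of 0.05, 20 members were higher and 12 were lower in the cells cultured with 25(OH)D. That is 30.5% of the members, beside 33.8% of all genes tested, of which 17.3% were higher and 16.5% lower. Past a fold limit, which asks for more than 1 on the log2 scale in either direction and for p below 0.05 before adjustment, 10 members were higher (9.52%, beside 4.02% of all genes) and 5 were lower (4.76%, beside 2.63%). The 5 were LINC00987, LINC01137, LINC00365, LINC01133 and LINC00910, of which LINC01137, named here after its values were seen, did not pass the adjusted test. The groups did not overlap in 40 members, which is 38.1%, beside 45.7% of all genes. The median log2 fold change was 0.078 over the members, -0.011 over all genes tested, -0.033 over 412 antisense genes and -0.0057 over 12197 protein-coding genes, both with a mean of at least 20 counts. Among the 97 members with a mean of at least 20 in each group, 18 were higher and 10 lower, which is 28.9% beside 36.2% of the 15750 genes that met the same limit. Of these 97, 8 were higher past the fold limit (8.25%, beside 2.74% of the 15750 genes) and 2 lower (2.06%, beside 1.46%). Without control replicate 2, 7 members were lower in place of 12, and without 25(OH)D replicate 1 the members past the fold limit and lower were 3 in place of 5.

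**Figure D1:**
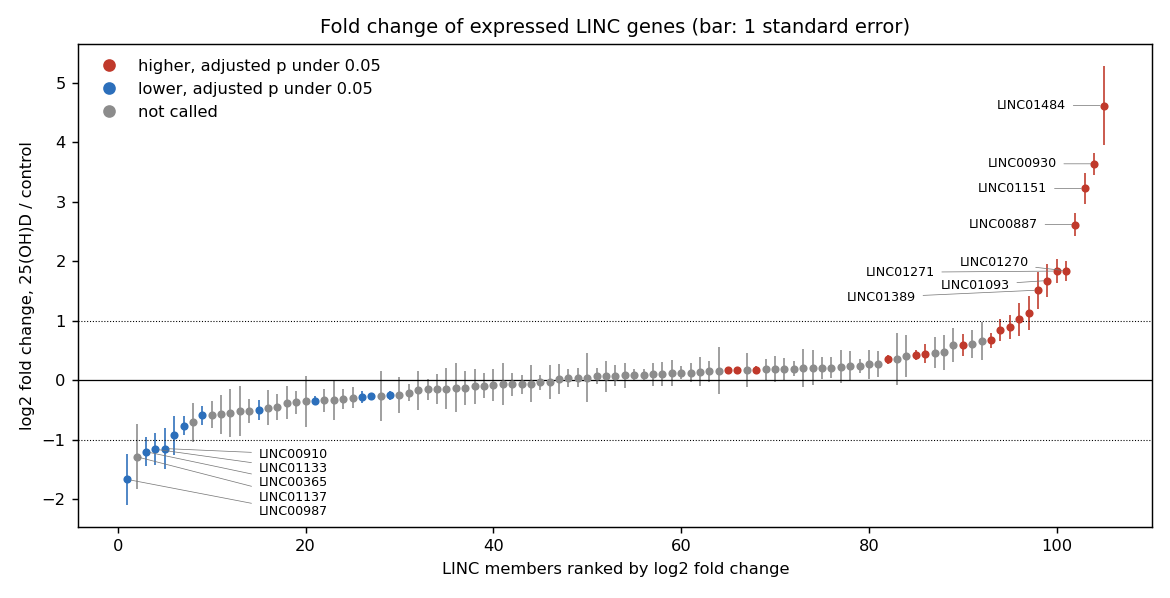
Log2 fold change of 25(OH)D against control for the 105 members in rank order, with a bar of 1 standard error; red and blue mark the 20 higher and 12 lower members at an adjusted p under 0.05, and dotted lines mark an absolute value of 1. The rises reach 4.62 and the falls -1.66, and LINC01137 is grey in spite of a value of -1.28.

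The share of members called rose with their depth. Of the 34 members with a mean of 20 to 50 counts 5 were called (14.7%), beside 13.2% of all genes in that range. Of the 51 members with 50 to 200 counts 16 were called (31.4%), beside 22.0%, and of the 20 members with 200 counts or more 11 were called (55.0%), beside 45.1%. The median standard error of the log2 fold change was 0.328, 0.201 and 0.0977 in these 3 ranges. The smallest absolute change that was called was 0.92 in the first range, 0.45 in the second and 0.17 in the third. A change of the size called in the deepest members was therefore not detectable in the shallowest. Of the 73 members not called, 38 had an absolute log2 fold change under 0.2.

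**Figure D2:**
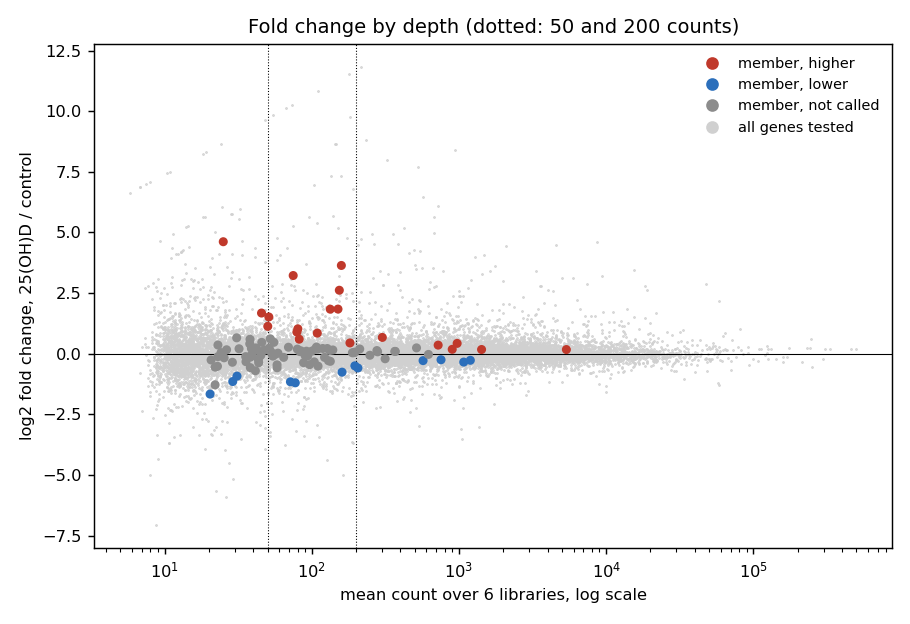
Log2 fold change against the mean count over 6 libraries on a log scale, for all 18183 genes tested (pale grey) and the 105 members (coloured by call), with dotted lines at 50 and 200 counts. Called members with fewer than 50 counts lie at an absolute value of 0.92 or more, and those with over 200 counts at 0.17 or more.

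The largest rises exceeded the largest falls. LINC00930 (chromosome 15, 92567818 to 92572042, minus strand of GRCh38) had control counts of 33, 24 and 20 and 25(OH)D counts of 322, 275 and 278. Every 25(OH)D library stood far above every control library, and the level went from 0.657 ± 0.126 to 8.28 ± 1.03 CPM (SD, n = 3 each), 12.6 times as high. On the log2 scale the change was 3.64 ± 0.186 (standard error), with the smallest adjusted p of the members, 1.92e-09 in edgeR, whose adjusted p-values are given throughout. LINC00887 (chromosome 3, 194296465 to 194312803, minus strand) had 43, 41 and 55 counts in control and 211, 305 and 267 in 25(OH)D. The lowest 25(OH)D library was above the highest control library by a wide margin, and the log2 fold change was 2.62 ± 0.189 (standard error; edgeR, adjusted p = 8.17e-08). LINC01151 (chromosome 8, 122670385 to 122694106, minus strand) had 18, 17 and 12 counts in control and 150, 115 and 136 in 25(OH)D, a log2 fold change of 3.22 ± 0.254 (standard error; edgeR, adjusted p = 2.08e-07). Its mean in control was under 20 counts, so it was among the members only through the 25(OH)D group.

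LINC01484 (chromosome 5, 173707614 to 173746211, minus strand) had the largest fitted change and the fewest control reads. It had control counts of 0, 0 and 6 and 25(OH)D counts of 46, 54 and 44, so that it was among the members only through the 25(OH)D group. All the control reads came from 1 library, and with each library left out in turn its log2 fold change of 4.62 ± 0.666 (standard error) ran from 4.02 to 8.66. It was called in each of these fits.

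LINC01270 and LINC01271 lie on opposite strands of chromosome 20 and rose together. LINC01270 had 67, 63 and 80 counts in control and 234, 272 and 187 in 25(OH)D, and LINC01271 had 57, 52 and 77 against 209, 250 and 155. Both had a log2 fold change of 1.84 (standard errors 0.166 and 0.198; edgeR, adjusted p = 7.99e-07 and 5.02e-06), and LINC01270 had the higher count of the pair in every library. They share 1333 exon bases, of 3014 in LINC01270 and 2250 in LINC01271, so reads of the shared bases cannot be told apart. The nearest tested protein-coding gene was CEBPB, a transcription factor of the C/EBP family, 100 kb from LINC01270. CEBPB had 795, 526 and 292 counts in control and 608, 816 and 1049 in 25(OH)D, which overlap, and its log2 fold change was 0.78 ± 0.249 (standard error; edgeR, adjusted p = 0.0262).

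**Figure D3:**
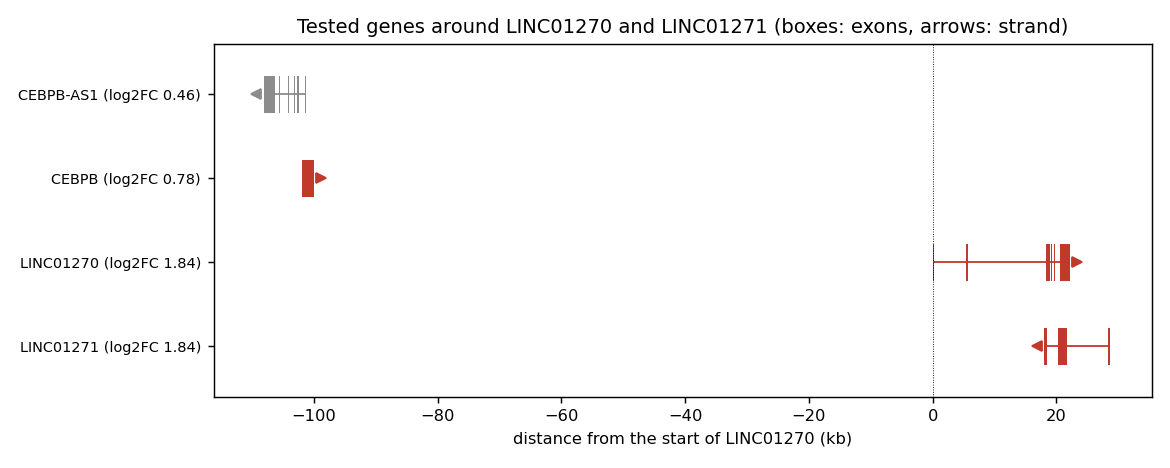
Exons (boxes) and strand (arrows) of the tested genes around LINC01270, drawn to scale as distance in kb from its start, with red for an adjusted p under 0.05 and grey for the rest. LINC01271 runs from 18.0 to 28.6 kb and overlaps the last exons of LINC01270, while CEBPB ends 100 kb before its start.

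The promoter windows of these and the other moved members were compared for the hexamers to which the vitamin D receptor is known to bind. RefSeq (GRCh38.p14) gave a window of 300 bases, from 250 before to 50 after the start, for 75 of the 105 members. The RefSeq start is not always that of the counted gene, and the printed windows are limited to starts at most 100 bases from it. The hexamer AGGTCA was searched on both strands, as were the hexamer GGGTCA, the hexamer AGTTCA and the hexamer GGTTCA, and since their letters differ no position matches more than 1 of them. The windows below are written 5′ to 3′ on the strand of the gene, with each match in capitals. The pair on chromosome 20 is shown because its reads overlap, LINC00887 and LINC01093 because they rose with 1 match each, and LINC00365 and LINC01133 because they fell with 2 matches and none. The positions are chr20:50292470-50292769 (plus) for LINC01270, chr20:50321293-50321592 (minus) for LINC01271, chr3:194312755-194313054 (minus) for LINC00887, chr4:184899412-184899711 (minus) for LINC01093, chr13:30108826-30109125 (minus) for LINC00365 and chr1:159960974-159961273 (plus) for LINC01133.
LINC01270: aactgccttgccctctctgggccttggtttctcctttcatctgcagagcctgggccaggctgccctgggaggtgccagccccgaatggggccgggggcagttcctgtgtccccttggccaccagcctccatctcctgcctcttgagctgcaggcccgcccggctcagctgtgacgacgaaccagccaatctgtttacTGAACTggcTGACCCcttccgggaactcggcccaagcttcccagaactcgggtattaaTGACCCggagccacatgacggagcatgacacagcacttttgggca
LINC01271: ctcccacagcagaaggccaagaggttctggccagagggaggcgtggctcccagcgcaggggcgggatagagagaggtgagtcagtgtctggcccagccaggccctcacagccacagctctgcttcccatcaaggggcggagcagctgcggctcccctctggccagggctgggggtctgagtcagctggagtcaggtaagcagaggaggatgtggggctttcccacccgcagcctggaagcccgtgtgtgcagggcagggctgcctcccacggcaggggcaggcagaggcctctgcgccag
LINC00887: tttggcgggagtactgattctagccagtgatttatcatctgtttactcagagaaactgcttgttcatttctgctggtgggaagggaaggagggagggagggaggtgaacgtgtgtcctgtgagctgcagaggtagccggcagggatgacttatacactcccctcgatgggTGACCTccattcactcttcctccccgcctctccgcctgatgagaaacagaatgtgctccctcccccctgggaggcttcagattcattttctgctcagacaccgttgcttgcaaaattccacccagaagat
LINC01093: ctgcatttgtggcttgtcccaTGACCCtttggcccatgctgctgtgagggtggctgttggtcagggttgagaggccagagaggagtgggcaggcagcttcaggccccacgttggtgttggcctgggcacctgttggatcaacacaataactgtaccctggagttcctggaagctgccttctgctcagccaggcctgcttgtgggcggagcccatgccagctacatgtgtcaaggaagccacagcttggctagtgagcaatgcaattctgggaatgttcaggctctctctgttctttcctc
LINC00365: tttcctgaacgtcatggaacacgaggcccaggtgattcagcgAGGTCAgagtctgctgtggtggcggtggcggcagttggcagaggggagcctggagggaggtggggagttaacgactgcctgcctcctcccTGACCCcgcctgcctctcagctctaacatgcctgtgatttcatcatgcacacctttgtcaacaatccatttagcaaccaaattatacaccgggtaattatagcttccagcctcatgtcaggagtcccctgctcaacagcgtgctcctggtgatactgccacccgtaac
LINC01133: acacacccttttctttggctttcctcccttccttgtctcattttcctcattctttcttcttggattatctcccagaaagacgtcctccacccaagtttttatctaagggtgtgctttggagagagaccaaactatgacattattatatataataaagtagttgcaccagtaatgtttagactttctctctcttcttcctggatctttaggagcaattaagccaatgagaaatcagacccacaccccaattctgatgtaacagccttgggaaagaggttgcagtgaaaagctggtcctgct

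A match to at least 1 of the 4 hexamers was found in 31 of the 75 member windows (41.3%), beside 38.7% of all 27305 windows of the table. It was found in 7 of the 15 windows of members called higher, 3 of the 7 of members called lower and 21 of the 53 of members not called. These counts include windows far from the start of the counted gene. Among members called higher, the windows of LINC00950, LINC01389, LINC00963, LINC00893 and LINC00930 lay 29510, 28840, 5209, 1207 and 221 bases from it and held no match. The window of LINC00910, called lower, lay 301 bases from it with no match. Among members not called, the farthest windows were mixed. Those of LINC01121 and LINC01002 lay 68354 and 37231 bases away with 1 match each. Those of LINC01060 and LINC00843 lay 54842 and 30710 bases away with no match. The sets were not compared without such windows. Matches in the same orientation with 3 bases between them were found in the window of LINC01270 alone among the 75, and in 21 of all 27305 windows (0.0769%). In the printed strand this pair reads TGAACTggcTGACCC, so that the other strand carries GGGTCA followed by AGTTCA. A match of letters is a description of the window, and binding was not measured here.

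Other members that rose past the fold limit had smaller changes. LINC01093 (chromosome 4, 184893871 to 184899454, minus strand) had 21, 21 and 27 counts in control and 78, 77 and 49 in 25(OH)D, a log2 fold change of 1.68 ± 0.282 (standard error; edgeR, adjusted p = 0.000327). LINC01389 (chromosome 1) had 27, 40 and 17 counts in control and 73, 96 and 53 in 25(OH)D, with 1.52 ± 0.309 (standard error; edgeR, adjusted p = 0.00151). In both, the lowest 25(OH)D library was above the highest control library, though by less than in LINC00930. LINC00571 rose by 1.13 on the log2 scale, from 39, 38 and 23 counts to 47, 92 and 62, and its adjusted p of 0.00759 (edgeR) became 0.0521 without 25(OH)D replicate 2. LINC01207, which RefSeq names SMIM31 and annotates as protein-coding, rose by 1.03, from 60, 32 and 76 counts to 126, 106 and 82, and its adjusted p of 0.00957 (edgeR) became 0.0530 without 25(OH)D replicate 1. The other 10 members that rose had log2 fold changes between 0.17 and 0.89, and LINC00886, LINC00950 and LINC00893 led them with 0.89, 0.85 and 0.67. LINC00950 lies in the gene that RefSeq names TMEM8B and shares 922 exon bases with the pseudogene OR13E1P on the opposite strand, and LINC00893 shares 988 with AF011889.5 on its own strand.

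Among the members that fell, LINC00987 (chromosome 12, 9240003 to 9243052, plus strand) had 37, 24 and 34 counts in control and 5, 10 and 12 in 25(OH)D. Its log2 fold change of -1.66 ± 0.427 (standard error; edgeR, adjusted p = 0.00756) was the largest fall of the members called, and it is also the member nearest to the selection limit. It shares 329 exon bases on the opposite strand with the pseudogene PTMAP4, which had a log2 fold change of -1.06. LINC00365 (chromosome 13, 30103178 to 30108875, minus strand) had 118, 98 and 116 counts in control and 56, 30 and 45 in 25(OH)D, with -1.20 ± 0.248 (standard error; edgeR, adjusted p = 0.00169). LINC01133 (chromosome 1, 159961218 to 159984750, plus strand), a noncoding RNA studied in several carcinomas, had 110, 78 and 116 counts in control and 56, 45 and 24 in 25(OH)D. In CPM it went from 2.62 ± 0.545 down to 1.17 ± 0.428 (SD, n = 3 each), which is -1.16 ± 0.271 on the log2 scale (standard error; edgeR, adjusted p = 0.00417). For these 3 members no 25(OH)D library reached the lowest control library, and each was called with any library left out. LINC00987 had a mean under 20 counts in 25(OH)D, so it was among the members only through the control group, where it was high.

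Other falls depended more on single libraries or were smaller. LINC00910 (chromosome 17) went from 37, 43 and 43 counts to 12, 23 and 16, and LINC01561 (chromosome 10), a single exon of 2176 bases, from 54, 38 and 34 to 17, 21 and 22. Their log2 fold changes of -1.15 and -0.92 passed the test (adjusted p = 0.0198 and 0.0416, edgeR), but the highest adjusted p without one library was 0.0737 and 0.170. LINC00680 fell by 0.76 on the log2 scale, from 260, 177 and 189 counts to 128, 112 and 96, and was called with any library left out. Among the most abundant members, LINC00467 fell by 0.34, LINC01578 by 0.28 and LINC01184 by 0.27, and in CPM their groups did not overlap.

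**Figure D4:**
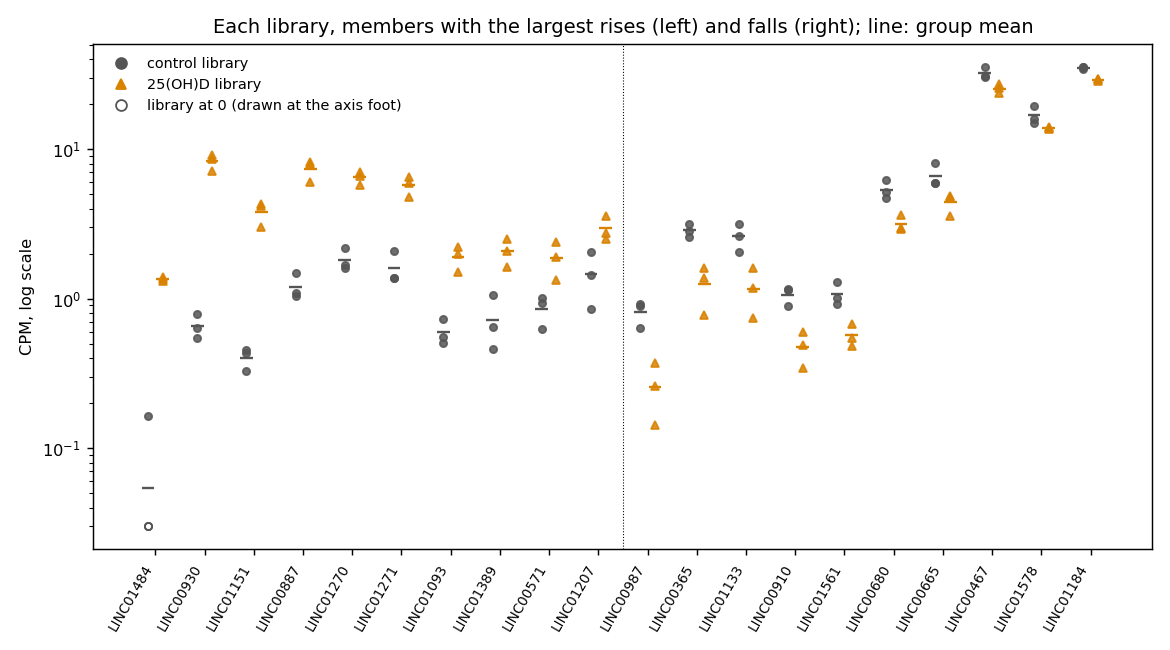
CPM of each library on a log scale for the 10 members with the largest rises and the 10 with the largest falls among those called and not overlapping; circles are control, triangles 25(OH)D, short lines group means and open circles libraries at 0. The groups are separate in every member drawn, from LINC01484, with control libraries at 0 and a mean of 1.35 CPM in 25(OH)D, to LINC01184, which went from 35.1 to 29.1 CPM.

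Ordered by level per length, the most abundant members changed little. LINC00993, a noncoding gene inside the ANKRD30A locus known from breast tissue, had the highest mean with 32.8 RPKM. It had 921, 857 and 872 counts in control and 905, 967 and 872 in 25(OH)D, that is 22.8 ± 0.795 against 25.9 ± 0.814 CPM (SD, n = 3 each). Its log2 fold change of 0.18 was at the edge of the test (adjusted p = 0.0473, edgeR) and was not called without control replicate 1, with 0.122, nor in 8 other fits. LINC00674 followed with 18.9 RPKM and was not called, with a log2 fold change of 0.24 (adjusted p = 0.124, edgeR). LINC00969, the host gene of a microRNA, had 8.23 RPKM and 23.2% of the counts of all members, and its log2 fold change was 0.17 ± 0.0409 (standard error; edgeR, adjusted p = 0.00448). It shares 2001 exon bases with SDHAP2 and 1820 with MUC20, a mucin whose log2 fold change was 0.58. Of the 8 members with the highest level, LINC00467, LINC01184 and LINC01128 had 6.50, 4.96 and 4.06 RPKM and were called. The call of LINC01128 (adjusted p = 0.0273, edgeR) was lost in 7 other fits. These were the fits without control replicate 1 or 3 or 25(OH)D replicate 1 or 2 (adjusted p up to 0.0926, edgeR), with library sizes alone, with no low-count filter and with limma on log2(RPKM + 1), which gave the highest adjusted p, 0.166. LINC00342 and LINC00843 had 6.42 and 5.05 RPKM and were not, with log2 fold changes of -0.028 and 0.13.

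All members together held 0.0607% ± 0.00192 of the reads in control and 0.0639% ± 0.000928 in 25(OH)D (SD, n = 3 each). The difference had p = 0.1 in a two-sided exact permutation test, the smallest p that 3 libraries against 3 allow, and p = 0.2 in the same exact test without LINC00969. Of the reads outside the mitochondrial genes the members held 0.0659% ± 0.00207 in control and 0.0703% ± 0.000998 in 25(OH)D (SD, n = 3 each), and the exact permutation test again gave p = 0.1. The share therefore cannot pass a threshold of 0.05 in this design.

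Some LINC transcripts are known to encode micropeptides, and 5 of a list of 10 such names were members, of which 3 were called, beside 33.8% of all genes tested. LINC01420, the gene of NBDY, a small protein that binds the mRNA decapping complex, rose by 0.45 on the log2 scale (adjusted p = 0.0434, edgeR), from 171, 138 and 175 counts to 231, 224 and 150. Its groups overlapped, and without 25(OH)D replicate 1 the adjusted p was 0.178. LINC00467, known for a peptide that binds ATP synthase, fell from 1286, 1342 and 1124 counts to 952, 985 and 769, which is 32.3 ± 2.76 against 25.4 ± 1.75 CPM (SD, n = 3 each; adjusted p = 0.00297, edgeR). LINC00665, known for a peptide that binds CIP2A, fell by 0.59 (adjusted p = 0.0119, edgeR), from 246, 305 and 217 counts to 170, 138 and 157. It was not called without control replicate 2 (0.0833, edgeR) or without 25(OH)D replicate 2. LINC00998, which is SMIM30, and LINC00493, which is SMIM26, a mitochondrial protein, were not called, with log2 fold changes of -0.063 and 0.089. Of the other 5 names, LINC00116 had 12 to 20 counts per library, LINC00961 had at most 2, and LINC00908, LINC00948 and LINC00278 had no entry under these names.

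Of a list of 20 LINC names known from breast or other cancers, 8 were members and 3 were called, which is 37.5% beside 33.8% of all genes tested. LINC00963 rose from 917, 952 and 743 counts to 1101, 1199 and 914, a log2 fold change of 0.43 ± 0.0837 (standard error; edgeR, adjusted p = 0.00112), and the groups did not overlap in CPM. LINC00993 and LINC01133 were the other called names. LINC01087 had 9.57 ± 0.215 CPM in control and 10.2 ± 0.509 in 25(OH)D (SD, n = 3 each), or 0.096 on the log2 scale with a standard error of 0.0922. LINC00152, also called CYTOR, had a log2 fold change of -0.29 (adjusted p = 0.258, edgeR), and LINC00472, LINC01089 and LINC00667 lay between -0.057 and 0.078. Among the names outside the members, LINC00511 had at most 6 counts in a library and LINC00473 between 3 and 7.

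Since some of these RNAs act on genes beside them, each member was set beside the nearest tested protein-coding gene. Within 50 kb there were 71 such pairs, with 16 called members. In 11 of the 16 the neighbour was called too, each time in the direction of the member. Among these 11 members, the calls of LINC00339, LINC01561, LINC01578 and LINC01278 were each lost without some library. The neighbour was called for 68.8% of the called members and for 40.0% of the 55 members not called. The log2 fold changes of member and neighbour had a Pearson's r of 0.587 and a Spearman's rho of 0.547 across the 71 pairs, which share the same 6 libraries and are not independent, so no p is given. Without pairs that share exon bases, 9 pairs were both called, and within 10 kb 8 were, each in the same direction. Beyond 50 kb there were 34 pairs, also with 16 called members. In 10 of these 16 the neighbour was called too, 6 in the same direction and 4 in opposite ones. The neighbour was called for 9 of the 18 far members not called, and r across the 34 pairs was 0.105. Of the 12197 protein-coding genes with a mean of at least 20 counts, 41.3% were called. The difference between the near and the far pairs was not tested.

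**Figure D5:**
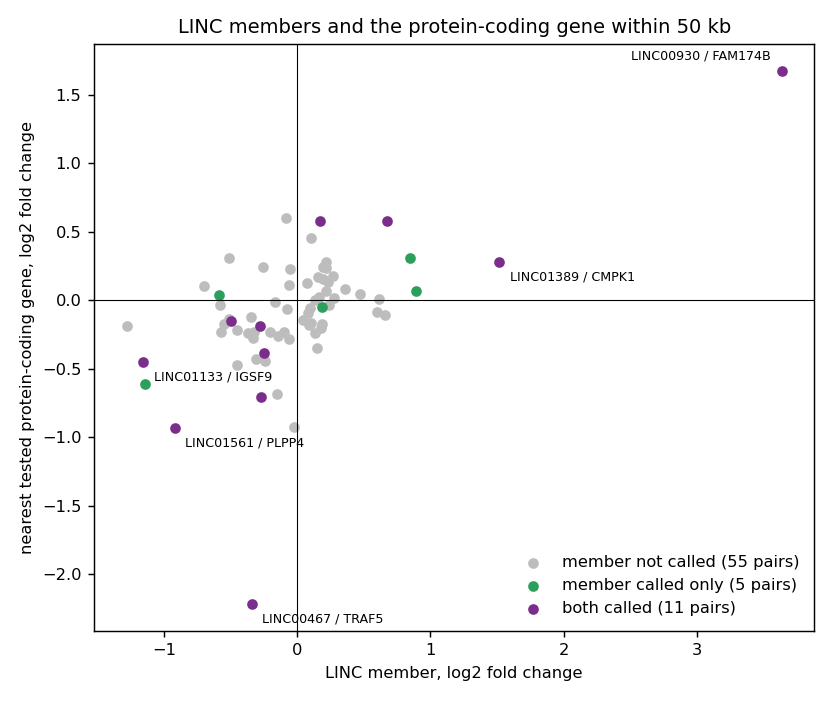
Log2 fold change of each member (horizontal) and of the nearest tested protein-coding gene within 50 kb (vertical), for 71 pairs coloured by call. The 11 pairs with both genes called lie in the lower left and upper right, from LINC00467 with TRAF5 at -2.22 to LINC00930 with FAM174B at 1.68.

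FAM174B, 45.4 kb from LINC00930 on the same strand, had 305, 248 and 198 counts in control and 741, 832 and 620 in 25(OH)D. Its log2 fold change of 1.68 (adjusted p = 2.69e-08, edgeR) was under that of LINC00930, and the groups of both were far apart. TRAF5, an adaptor of TNF receptors 7.86 kb from LINC00467, had 879, 844 and 854 counts in control and 167, 183 and 156 in 25(OH)D, a log2 fold change of -2.22 (adjusted p = 1.04e-10, edgeR) beside -0.34 for the member. PLPP4, a lipid phosphatase 8.09 kb from LINC01561, had -0.93 beside -0.92. IGSF9, a cell adhesion protein gene 15.6 kb from LINC01133 and on the other strand, fell from 772, 698 and 675 counts to 470, 523 and 438, which is -0.45 beside -1.16.

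The closest pairs lay within a few kb. SLC12A2, which encodes a sodium, potassium and chloride cotransporter, starts 594 bases from LINC01184 in the other direction, and RefSeq names the member SLC12A2-DT after it. SLC12A2 went from 157 ± 0.300 to 96.4 ± 3.19 CPM and LINC01184 from 35.1 ± 0.483 to 29.1 ± 0.410 CPM (SD, n = 3 each), so that the log2 fold change of the coding gene, -0.70, was the larger. LINC01578 is CHASERR, known to lower the expression of CHD2, the chromatin remodeller gene 488 bases after it. LINC01578 had a log2 fold change of -0.28 and CHD2 of -0.19 (adjusted p = 0.0387 and 0.000941, edgeR), so both fell. LINC01578 was not called without control replicate 2 (0.232, edgeR). Its call was also lost without 25(OH)D replicate 1, 2 or 3 and with limma on log2(RPKM + 1). LINC01389 and CMPK1, which converge with 2.09 kb between them, had 1.52 and 0.28. LINC00893 overlaps CXorf40A on the other strand with 347 shared exon bases, and they had 0.67 and 0.58.

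Of the 14 called members past the fold limit, 4 had a tested coding gene within 50 kb, and it was called for LINC00930, LINC01389 and LINC01133 and not for LINC00910. The other 10 lay farther from one. LINC01093 lies 67.1 kb from ACSL1, which encodes an acyl-CoA synthetase and stood at 226 ± 7.19 CPM in control and 543 ± 15.8 CPM in 25(OH)D (SD, n = 3 each), with 1.26 on the log2 scale beside 1.68. The nearest coding genes of LINC01151, LINC00887 and LINC01484 were ZHX2, ATP13A3 and BOD1, between 87.3 and 91.0 kb away, with log2 fold changes of 0.046, 0.057 and -0.069, none of them called. Called members with the most counts and a neighbour called in the opposite direction were LINC01128, with 0.17 beside -0.47 for SAMD11 at 64.5 kb, and LINC01420, with 0.45 beside -0.58 for SPIN3 at 158 kb. The calls of LINC01128 and LINC01420 were each lost in 7 other fits, so these pairs rest on calls that the other fits did not all make. The other opposite pairs had members with fewer counts. LINC00987, called with any library left out, had -1.66 beside 0.30 for M6PR at 290 kb. LINC01550, whose call was lost without some library, had 0.60 beside -0.44 for VRK1 at 994 kb.

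A list of genes linked to RNA decay in the nucleus was read from the same fit. It held exosome subunits and adaptors, and also the cap-binding genes NCBP1 and NCBP2, the poly(A) polymerase genes PAPOLA and PAPOLG, and XRN2. Of the 30 genes listed, all tested, 11 were lower (36.7%, beside 16.5% of all genes) and 4 higher (13.3%, beside 17.3%) at an adjusted p under 0.05. In 29 of the 30 the mean was 200 counts or more, a range in which 45.1% of all genes were called in either direction. The list had a median log2 fold change of -0.080 beside -0.011 over all genes. The lower ones included 8 of the 10 exosome subunit genes EXOSC1 to EXOSC10, among them the nuclease EXOSC10, with 153 ± 7.76 CPM in control and 122 ± 3.63 in 25(OH)D (SD, n = 3 each), or -0.32 on the log2 scale (adjusted p = 8.28e-05, edgeR). EXOSC8 had -0.53, EXOSC2 -0.36 and EXOSC3 -0.37, and of the adaptors SKIV2L2, the helicase MTR4, had -0.31, ZCCHC8 -0.38 and SRRT -0.23. EXOSC5, EXOSC6 and the catalytic subunit DIS3 were not called, with -0.094, -0.084 and -0.024. The 4 higher genes were PAPD5 with 0.51, MPHOSPH6 with 0.47, ZFC3H1 with 0.33 and the exonuclease XRN2 with 0.15. Their part in the levels of the members was not tested.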

How the data were processed

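Total RNA of MDA-MB-453 cells was made into stranded, polyadenylated libraries and sequenced by the authors' provider. The authors deposited a table of counts per gene, without normalization, and a table of RPKM values. The submitters' processing notes name Trimmomatic 0.36, featureCounts of Subread 1.5.1, edgeR 3.12.1 and GRCh38, while the aligner, the annotation release and the strand setting are not given in the sources used here. Each deposited RPKM value equalled the count divided by gene length and library total (largest relative difference 2.23e-13). Libraries were grouped by the sample labels, and no replicates were duplicates (chi-square per gene between 4.01 and 12.1 within groups).

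The whole table was fitted with edgeR 4.0.16 in R 4.3.3 (TMM factors, filterByExpr at its default minimum of 10 counts), and 25(OH)D was tested against control by quasi-likelihood with the group as the sole term. The Benjamini-Hochberg adjustment covered the 18183 genes that passed the filter. Each standard error was derived as the absolute log2 fold change divided by the square root of the quasi-likelihood F statistic. CPM values use TMM-scaled library sizes. The scripts were tested on simulated data. Shares of counts were set against each other by an exact permutation test (two-sided). Alternatives were other scalings, no filter, DESeq2 1.42.0, limma 3.58.1 on log2(RPKM + 1), the replicate number as a block, each library left out, and other limits for membership.

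Positions are those of the table, gene types are from GENCODE 29 and RefSeq, and promoter windows are from RefSeq GRCh38.p14. The nearest gene was measured between gene bodies. Python 3.11.15 with pandas 2.3.3, numpy 2.4.6, scipy 1.17.1 and matplotlib 3.10.9 was used. The members, lists and tests were chosen with earlier results of these data known. The rule for named genes took the 10 largest rises and 10 largest falls among called members without overlap of the groups, the 8 highest levels per length, members of the micropeptide and cancer lists, the genes nearest the limit, and 2 members with an opposite neighbour. The cells are one line, and the replicate numbers did not pair the libraries. A further marker of the line is not reported here.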

Additional observations from a re-analysis of the deposited data

Results flagged for a closer look

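LINC01085 lay outside the expressed members, with a mean of 11.3 counts over the 6 libraries, and was seen after its values were known. Its control counts were 0, 0 and 2 and its 25(OH)D counts 32, 18 and 16. Every control library was at or under 3 counts, and its mean level in 25(OH)D was 7.78 times the level of 3 counts per control library. This fold holds for the group mean and not for each library. The fold covers counting error only. Of the 343 LINC genes under the limit, 33 passed the low-count filter, and 3 were higher and 1 lower at an adjusted p under 0.05 (edgeR, Benjamini-Hochberg). Beside these, 17.3% of all genes tested were higher and 16.5% lower. Of all genes with a mean of 20 to 50 counts, 13.2% were called in either direction. LINC01085 and LINC01225 were among the 3 higher, and both passed the filter only through the 25(OH)D group. LINC01225 had 0, 0 and 4 counts in control and 18, 26 and 18 in 25(OH)D. LINC00898, the lower one, passed only through the control group.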

How the results depend on the processing

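With other scalings, no filter, DESeq2, limma on log2(RPKM + 1) or the replicate block, between 29 and 32 members were called, beside 32. The replicate numbers did not pair the libraries (correlations of same-numbered libraries between -0.072 and -0.012), and with the replicate block 18 members were higher and 11 lower, 29 in all, each of them among the 32. When each library was left out, 15 to 19 members were higher and 7 to 12 lower (7 without control replicate 2), 9 to 10 were higher and 3 to 5 lower past the fold limit (3 without 25(OH)D replicate 1), and the median log2 fold change of the members was between 0.041 and 0.111. In all, 20 of the 32 calls were kept without each library in turn. On log2(RPKM + 1), which understates changes of low values, 5 members were higher and 0 lower past the fold limit, with 18 higher and 12 lower at an adjusted p under 0.05. Of the 62 members with no shared exon bases 13 were higher and 8 lower, beside 20 and 12 of all 105, and the median of the 62 was 0.036. With a mean of at least 50 counts 2 were lower past the fold limit and the median was 0.10. With library sizes alone the median was 0.035 beside -0.055 over all genes. Of the alternative values of the single members named, 389 kept their side of the threshold and 43 lost it, with no change of direction among called members. Members with 20 to 50 counts had a median standard error of 0.328, so depth limits what could be called there.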
